A study of Homo sapiens with 70 samples.

Results

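The 7 genes described here encode RAS GTPases and the RAF kinases that bind them, and were chosen by name from the 44503 genes of 3 tables of RNA-seq counts. They are the RAS genes HRAS and NRAS, the related RAS genes RRAS, RRAS2 and MRAS, and the RAF kinase genes ARAF and BRAF. All 7 passed the filter on low counts in every comparison. The study measured polyA RNA from IMR90 cells, a line of diploid human lung fibroblasts, and from H1299 cells, a human lung carcinoma line. Every IMR90 library came from cells carrying pLNCX2 ER:HRAS G12V, a retroviral vector in which a viral promoter drives HRAS with the G12V change fused to a part of the estrogen receptor. The fusion is designed to be made without a signal and to become active when 4-hydroxytamoxifen (4OHT) is added.

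In the first IMR90 experiment, growing cells with the control vector pMSCV miR v (Grow, 8 libraries) and with an shRNA against HMGA1 (Grow-shA1, 8) were not given 4OHT. The same 2 kinds of cells received 100 nM 4OHT for 6 days to enter oncogene-induced senescence (OIS, 8, and OIS-shA1, 8). In the second IMR90 experiment all groups had 5 libraries. Growing cells with both control vectors (Grow-v-v) were set beside cells given 100 nM 4OHT for 6 days. The treated cells had both control vectors (OIS-v-v), pSuper shRNA against CEBPB (OIS-shCEBPB), pMSCV miR p53 (OIS-shp53) or both shRNAs (OIS-shCEBPB-shp53). By their titles, the groups with a single shRNA also carried a control vector. H1299 cells with the MSCV control vector (called H1299, 7 libraries) were compared with those carrying the HMGA1 shRNA in MSCV (H1299-shA1, 6), and the labels give them no RAS construct. No IMR90 group lacked the construct, so the level of the cell's own HRAS gene was not measured in these fibroblasts.

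RAS proteins are small GTPases at the plasma membrane that switch between a GDP-bound, inactive form and a GTP-bound, active form. Exchange factors load GTP, GTPase-activating proteins speed its hydrolysis, and active RAS recruits RAF kinases, which phosphorylate MEK, which phosphorylates ERK. Some substitutions keep the protein in the active form, and strong signalling of this kind in normal fibroblasts leads to a stable growth arrest. HMGA1 is an architectural chromatin protein and CEBPB is a transcription factor of the inflammatory secretome of senescent cells.

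Read counts can be compared between HRAS and NRAS only if their sequences can be told apart. The coding parts of the 2 genes in the reference (hg19, GENCODE) are 567 bases each, and 414 of these bases (73%) are identical, with a longest identical stretch of 14 bases. The tables count reads per gene and do not separate alleles, so HRAS counts add reads of the transgene to those of the cell's own gene. A transgene with the coding part alone covers 32.9% of the 1724 exon bases of HRAS, over which per-length values are computed, so those values understate the level of its RNA.

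The genes lie at chr11:532242-537287 (HRAS), chr1:115247090-115259515 (NRAS), chr19:50138549-50143458 (RRAS), chr11:14299472-14386052 (RRAS2), chr3:138066539-138124375 (MRAS), chrX:47420516-47431307 (ARAF) and chr7:140419127-140624564 (BRAF) in hg19. Counting ignored strand, and 1240 of the 10401 exon bases of BRAF overlap NDUFB2 on the other strand, so BRAF reads there could not be assigned with certainty. The same holds for 6 of the 3285 exon bases of ARAF, which overlap SYN1.

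Libraries held 13904974 to 24890797 counts, except OIS replicate 4 with 1903607. In the second IMR90 experiment replicates 1 to 3 stood apart from replicates 4 and 5. The median correlation of deviations from the group means, between libraries of different groups, was 0.277 within a set and -0.332 between the sets. Levels are given as CPM, a gene's count relative to the TMM-scaled size of its library, and, for comparisons between genes, as RPKM, which is CPM divided by the exon length of the gene in kilobases. The labels held up on HMGA1 and CEBPB. HMGA1 was lower in all 3 pairs of groups with its shRNA (log2 fold changes -3.79 in growing cells, -3.62 in OIS and -2.31 in H1299), and CEBPB was lower in OIS-shCEBPB (-3.06). At a mean of at least 1 CPM, IMR90 groups had all 6 fibroblast markers and 2 or 3 of 5 epithelial markers. H1299 had 2 of 6 and 2 of 5, and H1299-shA1 had 1 of 6 and 2 of 5. The summed epithelial markers ran from 43.7 to 122 CPM in IMR90 libraries and from 817 to 1133 CPM in H1299. In H1299-shA1 they ran from 628 to 722 CPM. The summed fibroblast markers ran from 5505 to 51436 CPM in IMR90 libraries. They ran from 1626 to 1766 CPM in H1299 and from 1909 to 2192 CPM in H1299-shA1, above the epithelial sums. Labels call the replicates biological without saying whether they were separate cultures, so p-values may measure technical spread only.

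HRAS was the most abundant of the 7 genes in all IMR90 groups and the third in H1299. On the RPKM scale HRAS averaged 935 ± 53.1 (SD, n = 8) in Grow and 22.5 ± 0.812 (n = 7) in H1299, values from separately normalised tables. Its median place in a ranking of all genes by RPKM lay between 14 and 54 in the IMR90 groups and was 2682 in H1299. The mean ratio of HRAS to NRAS RPKM was 22.6 in Grow, 34.6 in Grow-v-v and 0.319 in H1299, and HRAS made up 75.3% to 89.8% of the summed RPKM of the 5 RAS genes in IMR90 groups against 13.4% in H1299.

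**Figure D1:**
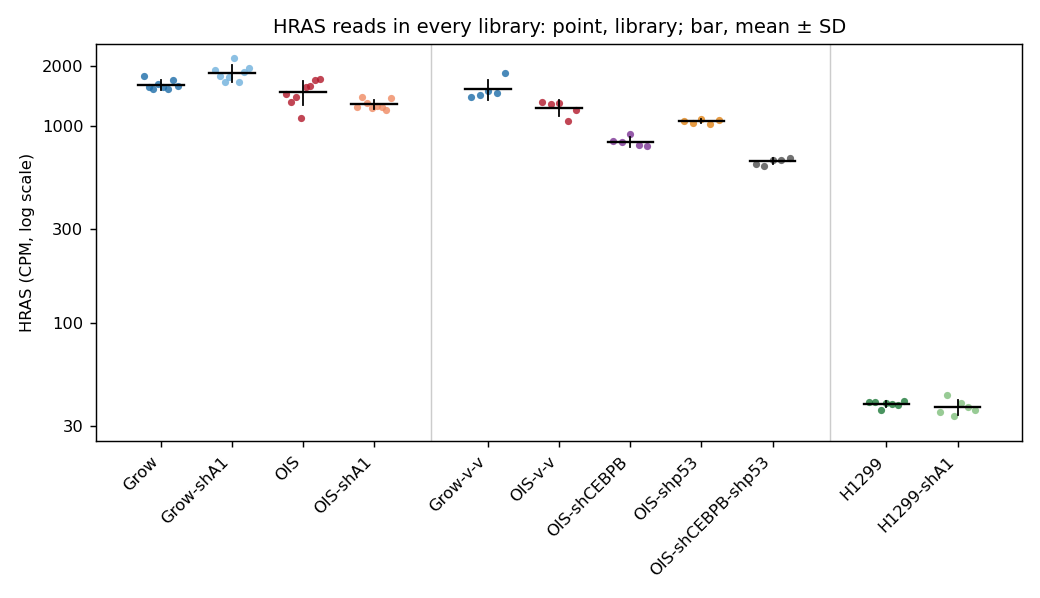
HRAS level (CPM, log axis) in each library, by group, with the mean and SD of each group. All IMR90 libraries lie between 628 and 2214 CPM, and the 13 H1299 and H1299-shA1 libraries lie between 33.8 and 43.1 CPM.

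Behind HRAS, the order in Grow was RRAS (93.7 ± 6.64 RPKM), NRAS (41.5 ± 1.46), ARAF (21.3 ± 1.01), MRAS (18.2 ± 1.39), RRAS2 (10.9 ± 0.561) and BRAF (3.68 ± 0.209). All IMR90 groups had this order except OIS-shA1, where BRAF (3.85 RPKM) and RRAS2 (3.72 RPKM) changed places. Several neighbours did not separate by library. ARAF and MRAS overlapped in Grow, Grow-shA1 and OIS, RRAS and NRAS overlapped in OIS and OIS-shA1, and RRAS2 and BRAF overlapped in those 2 groups too. In the second experiment NRAS overlapped ARAF in Grow-v-v, and MRAS overlapped RRAS2 in Grow-v-v, OIS-shCEBPB and OIS-shCEBPB-shp53. In H1299 the order was NRAS (70.5 ± 2.99 RPKM), RRAS (63.6 ± 5.44), HRAS, ARAF (8.55 ± 0.620), RRAS2 (7.50 ± 0.556), BRAF (4.10 ± 0.137) and MRAS (3.49 ± 0.150). NRAS overlapped RRAS there, and ARAF overlapped RRAS2.

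**Figure D2:**
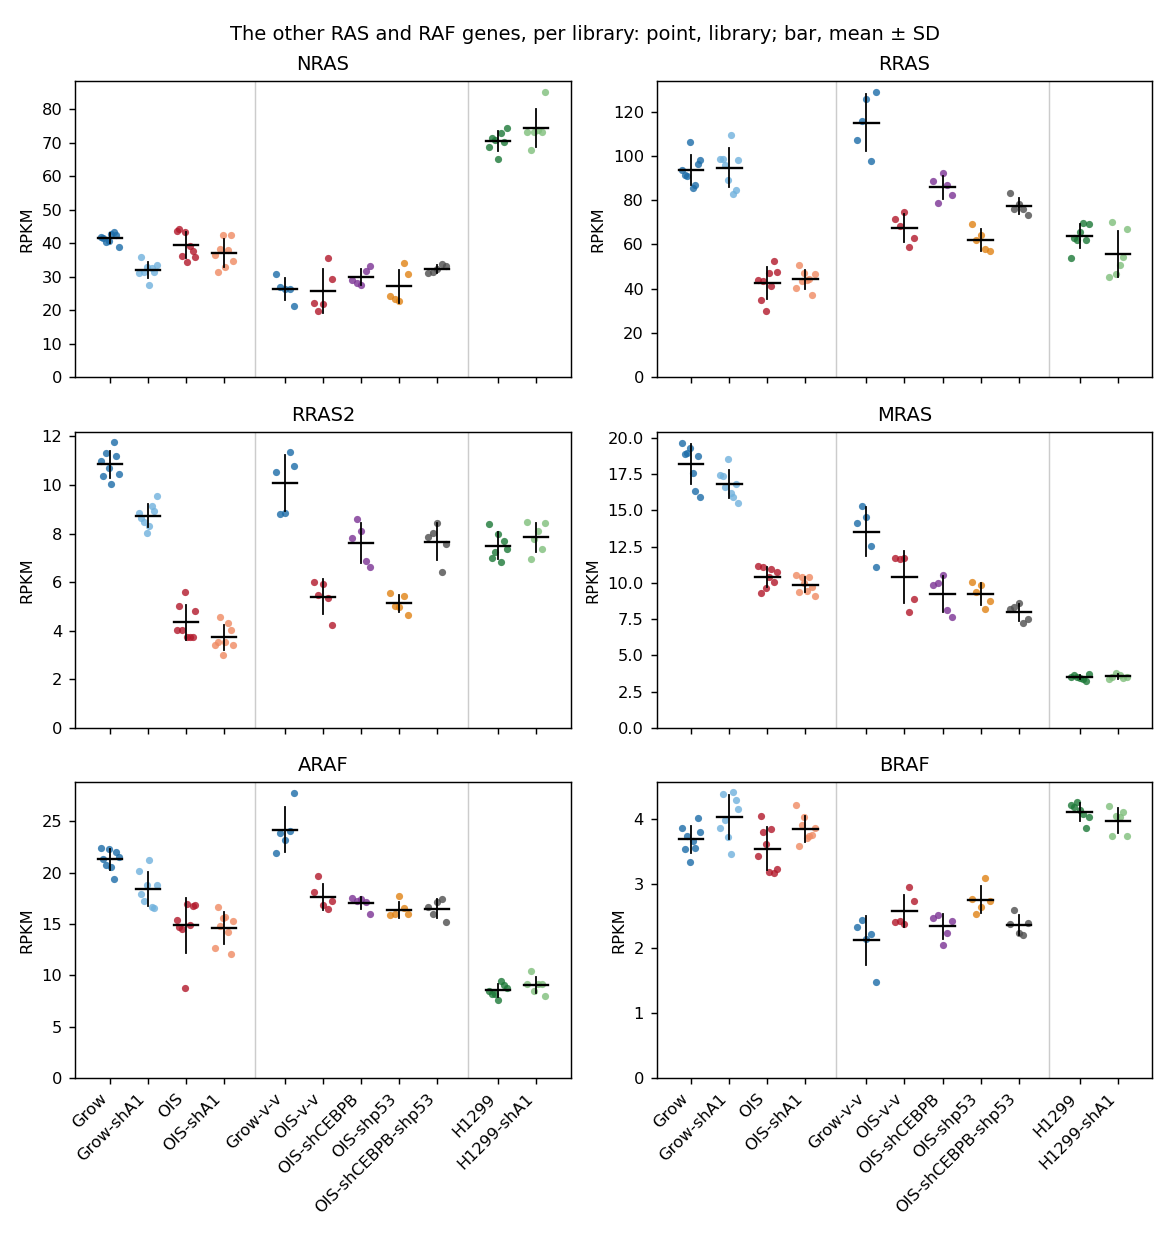
RPKM of the other 6 genes by group, 1 panel a gene, with points for libraries and bars for the mean and SD. RRAS, RRAS2 and MRAS have lower means in the 4OHT-treated groups than in their growing groups, while BRAF stays between 1.48 and 4.41 RPKM in all libraries.

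The knock-down of HMGA1 went with a higher HRAS level in growing cells and a lower one in OIS cells. HRAS ran from 1530 to 1795 CPM in Grow (median 1579) and from 1660 to 2214 CPM in Grow-shA1 (median 1825). Of the Grow-shA1 libraries, 4 of 8 lay above every Grow library. The log2 fold change was 0.20 ± 0.052 (SE), with an adjusted p of 0.0041 by edgeR's quasi-likelihood test with Benjamini-Hochberg adjustment over all genes. In OIS the range was 1096 to 1735 CPM (median 1515), and in OIS-shA1 it was 1197 to 1397 CPM (median 1252). These groups overlapped, also without OIS replicate 4, the shallow library, which had the lowest value of all 16. HRAS was lower in OIS-shA1 by a log2 fold change of -0.21 ± 0.067 (adjusted p = 0.014), and by -0.27 without OIS replicate 4 (adjusted p = 0.00015). In bulk RNA, fewer cells with the transgene, less transgene RNA per cell and a change in the cell's own HRAS RNA cannot be told apart.

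The response of HRAS to the HMGA1 shRNA differed between the 2 states. The interaction of shRNA and OIS had a log2 value of -0.41 ± 0.089 (adjusted p = 0.00055) and was called in all 32 fits that left out 1 library. HRAS differed more between OIS-shA1 and Grow-shA1, where every OIS-shA1 library lay below every Grow-shA1 library (-0.52 ± 0.053, adjusted p = 1.4e-09), than between OIS and Grow (-0.09 ± 0.066, 95% interval -0.23 to 0.04, adjusted p = 0.19). The OIS against Grow value depended on scaling, since it was 0.09 (adjusted p = 0.20) with library sizes alone, a scaling that moved the median of all genes from 0.03 to 0.22.

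ESR1, the gene of the estrogen receptor that the fusion is named for, had reads in all 32 libraries of the HMGA1 experiment in IMR90, between 46 and 516 counts. In the CEBPB and p53 experiment it had 0 to 2 counts, with 13 of 25 libraries at 0, where 3 counts, the upper limit that a count of 0 allows, equal 0.121 to 0.206 CPM. H1299 and H1299-shA1 libraries held 0 to 7 counts. Both IMR90 experiments carry the same construct by label. The cause of their difference in ESR1 was not tested.

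In the HMGA1 experiment ESR1 averaged 22 ± 2.18 CPM in Grow, 25.3 ± 3.22 in Grow-shA1, 20.2 ± 1.97 in OIS and 17.4 ± 1.45 in OIS-shA1 (SD, n = 8 each). These levels stood in the same order as those of HRAS. The log2 fold change was 0.21 in Grow-shA1 against Grow (adjusted p = 0.036) and -0.20 in OIS-shA1 against OIS (adjusted p = 0.027), and the interaction was -0.41 (adjusted p = 0.0029). The 2 shRNA calls were less firm than those of HRAS, and held in 9 and 12 of 16 fits that left out 1 library. There were 1.36, 1.37, 1.39 and 1.36 ESR1 counts for every 100 HRAS counts in Grow, Grow-shA1, OIS and OIS-shA1. Whether these reads come from the fusion transcript or from the cell's own ESR1 was not tested.

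**Figure D3:**
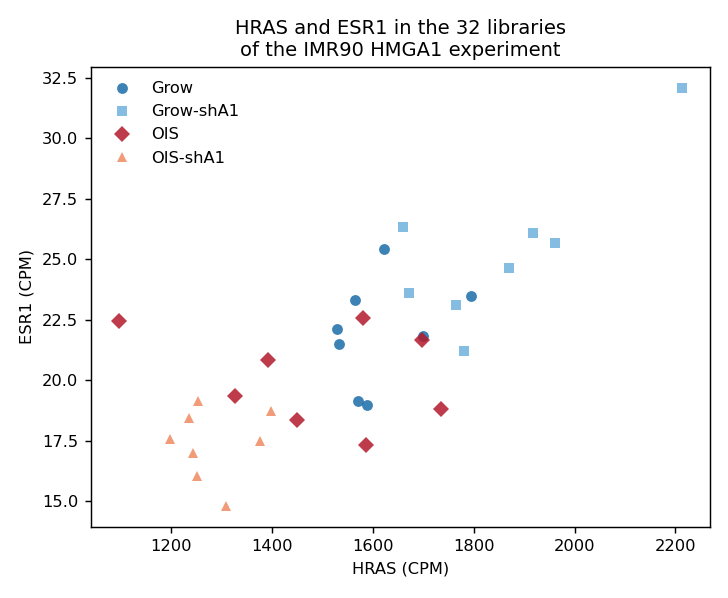
ESR1 level against HRAS level (both CPM) in the 32 libraries of the HMGA1 experiment in IMR90, coloured by group. Grow-shA1 libraries lie to the upper right, with 1660 to 2214 CPM of HRAS, and OIS-shA1 libraries to the lower left, with 1197 to 1397 CPM.

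In the CEBPB and p53 experiment HRAS was lower in the senescent groups with the CEBPB shRNA, and lowest where both shRNAs were present. Replicates 1 to 5 had 1401, 1435, 1500, 1459 and 1855 CPM in Grow-v-v. In OIS-v-v they had 1314, 1296, 1311, 1053 and 1203 CPM. In OIS-shp53 they had 1055, 1036, 1088, 1020 and 1073 CPM. Only OIS-v-v and OIS-shp53 overlapped, through replicate 4 of OIS-v-v. In OIS-shCEBPB the values were 839, 824, 905, 796 and 790 CPM. In OIS-shCEBPB-shp53 they were 642, 628, 672, 674 and 684 CPM, below all other libraries of the experiment.

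Against OIS-v-v, HRAS changed by a log2 fold change of -0.57 ± 0.075 in OIS-shCEBPB (adjusted p = 0.00026), which is 0.673-fold. The change in OIS-shCEBPB-shp53 was -0.91 ± 0.070 (0.533-fold, adjusted p = 1.6e-06). The double knock-down was also lower than either single one, by -0.33 ± 0.050 against OIS-shCEBPB (adjusted p = 0.00099) and by -0.68 ± 0.041 against OIS-shp53 (adjusted p = 1.3e-07). All 4 differences were called in every one of 10 fits that left out a library, and they kept their sign within replicates 1 to 3 and within replicates 4 and 5. A departure from the sum of the 2 single effects on the log2 scale was not called, at -0.10 (95% interval -0.27 to 0.07, adjusted p = 1.0).

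The p53 shRNA alone gave a smaller difference that did not pass the threshold, -0.23 ± 0.067 (adjusted p = 0.083). It was called with the replicate number as a block (-0.22, adjusted p = 0.0049), by DESeq2 (-0.23, adjusted p = 0.015) and without OIS-v-v replicate 4 (-0.28, adjusted p = 0.0099). Within replicates 1 to 3 it was -0.30 (adjusted p = 3.8e-07) and within replicates 4 and 5 it was -0.11 (adjusted p = 0.45). Each group is compared with the same 5 OIS-v-v libraries.

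Unlike in the first experiment, HRAS was called lower in OIS-v-v than in Grow-v-v, without overlap (-0.30 ± 0.10, adjusted p = 0.030). The call was lost without Grow-v-v replicate 3 (adjusted p = 0.0502), without OIS-v-v replicate 4 (-0.26, adjusted p = 0.058) and without OIS-v-v replicate 5 (adjusted p = 0.051). It was -0.15 within replicates 1 to 3 (adjusted p = 0.0048) and -0.55 within replicates 4 and 5 (adjusted p = 0.014). The difference between the 2 experiments in this contrast was not tested, and a call in the second alone does not show that they differ.

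**Figure D4:**
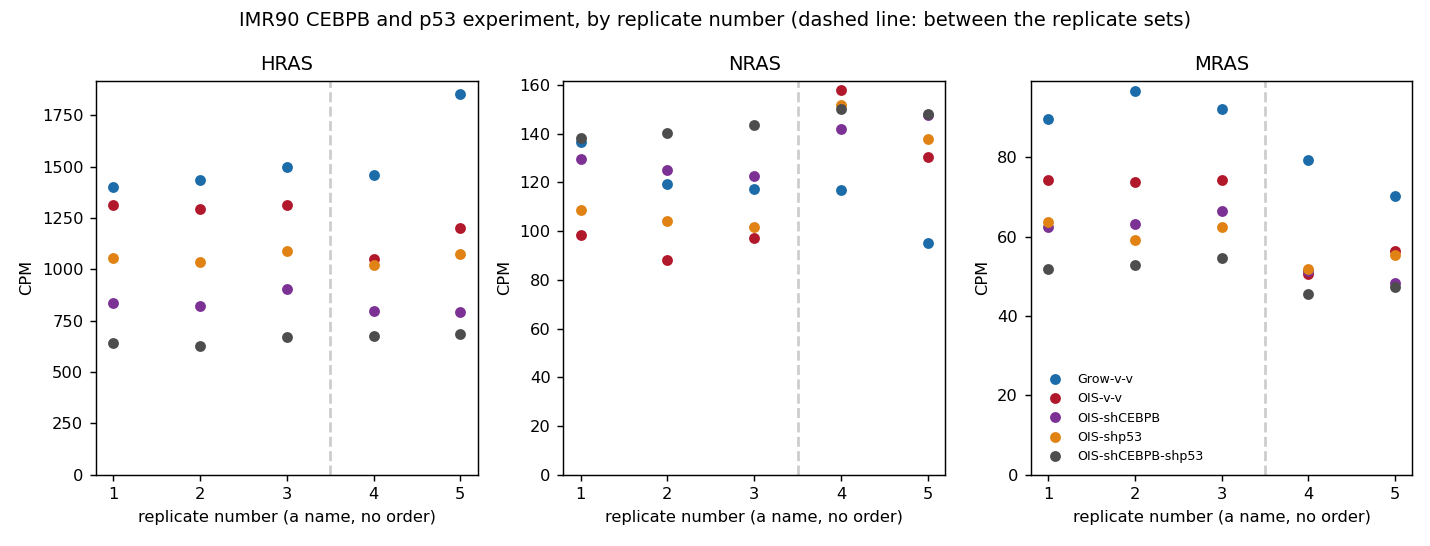
CPM of HRAS, NRAS and MRAS by replicate number in the 5 groups of the CEBPB and p53 experiment. HRAS keeps its order of shRNA groups at every replicate number except that OIS-v-v and OIS-shp53 come close at replicate 4 (1053 and 1020 CPM), while NRAS in OIS-v-v is higher in replicates 4 and 5 (158 and 130 CPM) than in replicates 1 to 3 (88.2 to 98.4 CPM).

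NRAS, a RAS gene with no transgene here, moved in the opposite direction to HRAS under the HMGA1 shRNA in growing cells. It ran from 173 to 193 CPM in Grow (median 186) and from 122 to 160 CPM in Grow-shA1 (median 143), without overlap. The log2 fold change was -0.37 ± 0.042 (adjusted p = 1.4e-07). In OIS it ran from 154 to 197 CPM (median 171) and in OIS-shA1 from 140 to 190 CPM (median 166), with no call (-0.08 ± 0.062, adjusted p = 0.35). The interaction of the shRNA with OIS was 0.30 ± 0.081 (adjusted p = 0.0056), but 0.18 (adjusted p = 0.078) with library sizes alone. NRAS was higher in OIS-shA1 than in Grow-shA1 (0.22 ± 0.058, adjusted p = 0.0014). Its OIS against Grow value was -0.06 (adjusted p = 0.29), and 0.13 (adjusted p = 0.018) with library sizes alone.

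In the second experiment NRAS split by replicate set. Replicates 1 to 5 had 137, 120, 117, 117 and 95.1 CPM in Grow-v-v. In OIS-v-v they had 98.4, 88.2, 97.1, 158 and 130 CPM. In OIS-shp53 they had 109, 104, 102, 152 and 138 CPM. Replicates 4 and 5 were thus the high ones in these 2 senescent groups and, in Grow-v-v, replicate 5 was the lowest. The OIS-v-v against Grow-v-v value was -0.03 over all replicates (adjusted p = 0.91), -0.41 within replicates 1 to 3 (adjusted p = 5.5e-06) and 0.45 within replicates 4 and 5 (adjusted p = 0.029).

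Under the CEBPB shRNA NRAS was more even, with 130, 125, 123, 142 and 148 CPM in OIS-shCEBPB. In OIS-shCEBPB-shp53 it had 138, 141, 143, 150 and 148 CPM. The log2 fold changes against OIS-v-v were 0.22 (adjusted p = 0.35) and 0.33 (adjusted p = 0.077). With the replicate block they were 0.25 (adjusted p = 0.028) and 0.36 (adjusted p = 0.0095), and without OIS-v-v replicate 4 they were 0.37 (adjusted p = 0.035) and 0.48 (adjusted p = 0.0024). These differences lay in replicates 1 to 3 (0.40 and 0.58, adjusted p = 9.8e-06 and 5.9e-09), and were 0.01 and 0.05 in replicates 4 and 5. The double knock-down against OIS-shp53 gave 0.25 (adjusted p = 0.088, and 0.0035 with the block), and against OIS-shCEBPB it gave 0.11 (adjusted p = 0.20, and 0.029 with the block).

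RRAS, RRAS2 and MRAS, whose products share effectors with the classical RAS proteins (MRAS also forms a phosphatase complex with SHOC2 that acts on RAF), were lower in senescent cells. RRAS ran from 99.8 to 124 CPM in Grow (median 108) and from 34.6 to 61.0 CPM in OIS (median 50.8). RRAS2 ran from 35 to 40.9 CPM in Grow (median 37.7) and from 12.9 to 19.5 CPM in OIS (median 14). MRAS ran from 101 to 124 CPM in Grow (median 119) and from 58.7 to 70.6 CPM in OIS (median 66.8). None of the 3 genes had overlapping groups, in a contrast that called 74.8% of all genes. The share of all genes without overlap was not computed in any contrast. The log2 fold changes of the 3 genes were -1.08 ± 0.068, -1.34 ± 0.069 and -0.77 ± 0.051 (adjusted p = 2.1e-14, 2.0e-16 and 5.9e-14). In cells with the HMGA1 shRNA they were nearly the same size, at -1.09, -1.22 and -0.76, and the interaction was not called for any of the 3 (0.01, 0.14 and 0.03, with 95% intervals of -0.19 to 0.20, -0.07 to 0.34 and -0.10 to 0.17). The summed level of 6 fibroblast markers fell along with them, from 37070 to 46155 CPM in Grow to 5505 to 6795 CPM in OIS, and its part in these results was not tested. In the second experiment it fell from 39336 to 51436 CPM in Grow-v-v to 13660 to 21211 CPM in OIS-v-v.

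The same 3 genes were lower in OIS-v-v than in Grow-v-v. Replicates 1 to 5 of RRAS had 125, 135, 146, 114 and 150 CPM in Grow-v-v and 83.2, 79.7, 87.1, 68.7 and 73.3 CPM in OIS-v-v (-0.77 ± 0.097, adjusted p = 4.0e-05). RRAS2 had 36.6, 30.7, 30.8, 39.5 and 37.5 CPM against 20.9, 19, 20.7, 18.5 and 14.8 CPM (-0.89 ± 0.12, adjusted p = 4.8e-05). MRAS had 89.6, 96.6, 92.0, 79.2 and 70.1 CPM against 74.1, 73.7, 74.1, 50.7 and 56.3 CPM, and its groups overlapped (-0.37 ± 0.13, adjusted p = 0.030). The call for MRAS held in 5 of 10 fits that left out a library, being lost without any one of Grow-v-v replicates 1, 2 and 3 and OIS-v-v replicates 4 and 5 (adjusted p = 0.056 to 0.069), and it stood with the replicate block (-0.38, adjusted p = 0.0034).

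RRAS and RRAS2 were higher in senescent cells with the CEBPB shRNA than in those without it. RRAS had 103, 91.8, 108, 101 and 95.9 CPM in OIS-shCEBPB, all above OIS-v-v (0.35 ± 0.072, adjusted p = 0.0051). RRAS2 had 27.2, 29.9, 28.2, 23.9 and 23.0 CPM, also all above (0.49 ± 0.11, adjusted p = 0.0067). In the double knock-down RRAS2 was again higher than in OIS-v-v (0.50 ± 0.10, adjusted p = 0.0029), and both genes were higher than in OIS-shp53 without overlap (RRAS 0.31, adjusted p = 0.0016, and RRAS2 0.57, adjusted p = 0.00017). The RRAS difference between the double knock-down and OIS-v-v was called (0.20 ± 0.069, adjusted p = 0.042) but in only 3 of 10 fits that left out a library, since it was lost without OIS-v-v replicate 2, 4 or 5 or without any one of replicates 1 to 4 of OIS-shCEBPB-shp53 (adjusted p = 0.056 to 0.098).

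MRAS went the other way from RRAS and RRAS2 in the double knock-down, with 51.8, 52.8, 54.6, 45.6 and 47.3 CPM. It was lower than in OIS-v-v (-0.39 ± 0.11, adjusted p = 0.019, and 0.0504 without OIS-v-v replicate 1) and than in OIS-shp53 (-0.22 ± 0.069, adjusted p = 0.031, called in 5 of 10 fits that left out a library). In OIS-shCEBPB it was not called over all replicates (-0.17, adjusted p = 0.42). It was called there with the block (-0.17, adjusted p = 0.022), with the set of replicates as a term (-0.17, adjusted p = 0.011) and within replicates 1 to 3 (-0.22, adjusted p = 0.0044), and was -0.09 within replicates 4 and 5 (adjusted p = 0.45). OIS-shp53 had a like value for MRAS over all replicates, -0.17, also not called. Replicates 1 to 3 ran from 59.1 to 63.7 CPM there and from 73.7 to 74.1 CPM in OIS-v-v. Within replicates 4 and 5 the log2 fold change in OIS-shp53 was 0.0033. The HMGA1 shRNA lowered RRAS2 in growing cells without overlap, from 35 to 40.9 CPM in Grow to 27.9 to 33.3 CPM in Grow-shA1 (-0.31 ± 0.047, adjusted p = 1.2e-05). For RRAS and MRAS in that contrast the values were 0.02 (95% interval -0.09 to 0.13) and -0.11 (adjusted p = 0.074), and MRAS was called without Grow-shA1 replicate 4 or Grow replicate 6 or 8 (adjusted p = 0.024 to 0.039). The summed fibroblast markers were also lower without overlap in this contrast, at 27500 to 32951 CPM in Grow-shA1 against 37070 to 46155 CPM in Grow, and their part in the RRAS2 result was not tested. In OIS-shA1 against OIS, RRAS2 had a value of -0.18 that was not called, and its interaction of the shRNA with OIS was not called.

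ARAF, a RAF kinase with weak activity of its own, was lower in senescent cells and BRAF, the RAF kinase with the highest basal activity, was not called. ARAF ran from 63.7 to 73.5 CPM in Grow (median 70.4) and from 28.8 to 55.7 CPM in OIS (median 49.8), without overlap (-0.45 ± 0.064, adjusted p = 4.0e-07). The lowest value was that of OIS replicate 4, and the next was 47.8 CPM. In OIS-shA1 ARAF was lower than in Grow-shA1 (-0.32 ± 0.064, adjusted p = 6.6e-05), with 7 of 8 libraries below all of Grow-shA1. It had 72.0, 78.3, 76.2, 78.9 and 91.2 CPM in Grow-v-v and 59.4, 64.5, 55.2, 54.2 and 56.6 CPM in OIS-v-v (-0.45 ± 0.084, adjusted p = 0.00083). It was also lower in Grow-shA1 than in Grow (-0.21 ± 0.051, adjusted p = 0.0025). In OIS-shA1 against OIS its value of -0.07 was not called, and its interaction of the shRNA with OIS was not called. Neither the CEBPB nor the p53 shRNA gave a call for ARAF, and the 95% intervals against OIS-v-v were -0.18 to 0.08 and -0.23 to 0.02.

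BRAF ran from 34.7 to 41.6 CPM in Grow (median 38.4) and from 32.9 to 42.0 CPM in OIS (median 36.6), a difference of -0.04 (95% interval -0.15 to 0.08, adjusted p = 0.59). With library sizes alone this value was 0.15 (adjusted p = 0.016). In the second experiment it had 24.2, 25.4, 22.3, 23.1 and 15.4 CPM in Grow-v-v and 25.1, 25.2, 24.7, 30.7 and 28.4 CPM in OIS-v-v, a difference of 0.29 that was not called (adjusted p = 0.092). It was 0.05 within replicates 1 to 3 (adjusted p = 0.55) and 0.62, a called value, within replicates 4 and 5 (adjusted p = 0.014). Against OIS-v-v, BRAF was likewise called within replicates 4 and 5 in OIS-shCEBPB (-0.28, adjusted p = 0.036) and in the double knock-down (-0.30, adjusted p = 0.024), but not within replicates 1 to 3 (-0.05 and 0.00, adjusted p = 0.69 and 0.96). In Grow-shA1 against Grow it was called without Grow-shA1 replicate 4 or 5 or Grow replicate 7 (0.15 to 0.16, adjusted p = 0.013 to 0.041). Over all replicates the single call for BRAF was in the double knock-down against OIS-shp53 (-0.23 ± 0.066, adjusted p = 0.020), which was lost without replicate 3 or 4 of OIS-shCEBPB-shp53 (adjusted p = 0.051 each).

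In H1299-shA1 against H1299, edgeR called 0 of the 7 genes, beside 15.6% of all genes (8.65% higher and 6.93% lower). HRAS ran from 35.9 to 39.9 CPM in H1299 (median 39.1) and from 33.8 to 43.1 CPM in H1299-shA1 (median 36.6), and its log2 fold change of -0.05 had a 95% interval of -0.16 to 0.06. NRAS ran from 290 to 331 CPM (median 316) and from 302 to 379 CPM (median 326), with a log2 fold change of 0.08 (95% interval -0.02 to 0.17). DESeq2 also called 0 of the 7 genes. RRAS alone had an unadjusted p under 0.05, with 62.7 to 81.3 CPM in H1299 and 52.9 to 81.9 CPM in H1299-shA1 (-0.19 ± 0.090, adjusted p = 0.17). RRAS was called without H1299-shA1 replicate 3 (-0.27, adjusted p = 0.025). The other 4 genes had 95% intervals within -0.14 to 0.22.

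Counts of called genes are read against the share of all genes tested that was called in the same contrast. In Grow-shA1 against Grow 4 of the 7 genes were called (29.9% of all genes), 1 higher (14.8%) and 3 lower (15.1%). In OIS-shA1 against OIS only HRAS was called (35.9%, with 18.8% higher and 17.1% lower). In OIS against Grow 4 were called (74.8%, with 38.8% higher and 35.9% lower), all 4 of them lower. In OIS-shA1 against Grow-shA1 6 were called (73.1%), with NRAS the single one higher (37.1%) and 5 lower (36%). In OIS-v-v against Grow-v-v 5 were called (45.8%, with 22.7% higher and 23.2% lower), all 5 lower. Median log2 fold changes of the 7 genes in these 3 senescence contrasts were -0.45, -0.52 and -0.37, beside 0.03, 0.02 and 0.01 for all genes tested. With library sizes alone the higher share of all calls went from 49.4% to 60.3% in Grow-shA1 against Grow, from 52.3% to 27.8% in OIS-shA1 against OIS and from 51.9% to 66.2% in OIS against Grow.

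Against OIS-v-v, 3 of the 7 genes were called in OIS-shCEBPB (17.1% of all genes), 2 higher (9.09%) and 1 lower (8%). In OIS-shp53 edgeR called 0 (4.44%, with 2.47% higher and 1.97% lower), while HRAS had an unadjusted p under 0.05 and was the 1 gene called by DESeq2. In OIS-shCEBPB-shp53 4 were called (33.6%), 2 higher (17.1%) and 2 lower (16.5%). The double knock-down gave 1 call against OIS-shCEBPB (14.8%, with 8.14% higher and 6.71% lower), HRAS. RRAS (-0.15) and MRAS (-0.21) had an unadjusted p under 0.05 by edgeR in that contrast without a call. Against OIS-shp53 the double knock-down gave 5 (27.6%), 2 higher (14%) and 3 lower (13.7%). With the replicate block the counts were 5 in OIS-shCEBPB, 1 in OIS-shp53 and 4 in the double knock-down against OIS-shCEBPB, with 31.9%, 22.7% and 33% of all genes called. With library sizes alone the higher share of all calls went from 53.2% to 70.9% in OIS-shCEBPB, from 50.9% to 71.0% in the double knock-down against OIS-v-v and from 50.5% to 73.3% against OIS-shp53.

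The interaction of the HMGA1 shRNA with OIS was called for 2 genes (23.6%), NRAS above 0 (12.2%) and HRAS below (11.4%). Of all calls in it, 51.7% were above 0, or 20.4% with library sizes alone. The interaction of the CEBPB and p53 shRNAs was called for 0 (0.0432%, with 0.0216% in each direction), with 0 at an unadjusted p under 0.05 and 0 by DESeq2.

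**Figure D5:**
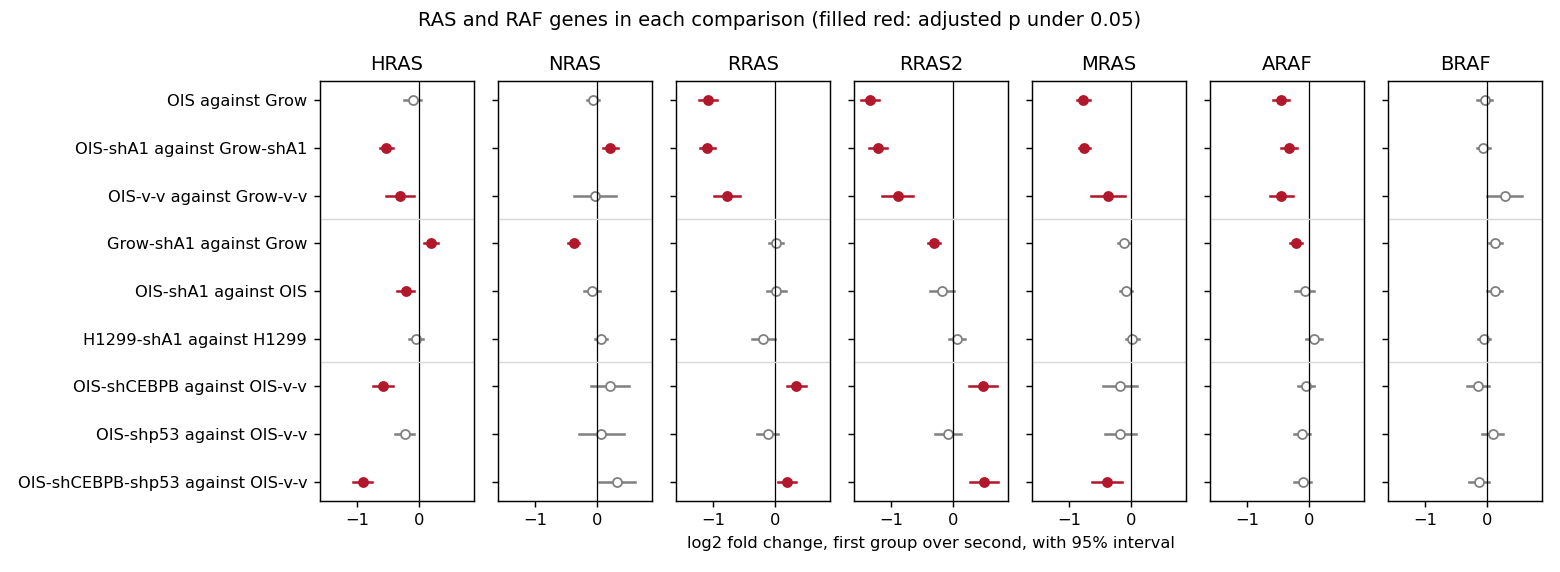
Log2 fold change with its 95% interval for the 7 genes in 9 contrasts, filled where the adjusted p is under 0.05. RRAS and RRAS2 lie furthest below 0 in the senescence contrasts, at -0.77 to -1.34, and HRAS lies furthest below 0 in the double knock-down against OIS-v-v, at -0.91.

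Of 82 other genes of the pathway, grouped by role, 58 of 73 tested (79.5%, beside 74.8% of all genes) were called in OIS against Grow. Of the called genes 37 were higher and 21 lower, beside 38.8% and 35.9% of all genes. The share called was thus close to that of all genes. The list of ERK output and feedback genes, which hold phosphatases and inhibitors that ERK induces, had 10 of 15 higher and 3 lower (beside the same 38.8% and 35.9%). DUSP4 and DUSP6, phosphatases of ERK, were higher by 2.80 and 2.41 on the log2 scale, DUSP6 from 114 to 593 CPM, while SPRY1 and ETV5 were lower (-1.03 and -0.66). In OIS-v-v against Grow-v-v 11 of the 15 were higher and 1 lower (beside 22.7% and 23.2% of all genes), with DUSP4 at 3.59, DUSP6 at 2.77 and FOSL1, a subunit of AP-1, at -0.75. The median log2 fold change of the list was 0.89 and 1.11 in the 2 contrasts. For all genes the median was 0.03 and 0.01. HRAS counts were lower or not called in the same contrasts.

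The counts of the other lists stand beside 38.8% of all genes higher and 35.9% lower in OIS against Grow. Among exchange factors, RASGRF1 was higher in OIS than in Grow (1.91, from 0.924 to 3.15 CPM), and 2 were higher and 2 lower of 6 tested. The GTPase-activating proteins had 3 higher and 2 lower of 7, with NF1 at 0.30 and RASA1 at -0.42. Adaptors and scaffolds had 5 higher and 4 lower of 9, with the MEK scaffold LAMTOR3 at 0.46 and the RAF and MEK scaffold KSR1 at -1.28. Of the MEK, ERK and RSK kinases 4 were higher and 2 lower of 7, and the ERK-activated kinase RPS6KA3 rose by 1.41 while RPS6KA2 fell by 1.68 on the log2 scale. Other effectors had 5 higher and 2 lower of 9 (RIN1 1.25, RASSF1 -0.68). Lipid modification and trafficking genes had 3 higher and 2 lower of 8 (LYPLA1 0.66, and ICMT, which methylates the RAS tail, -0.72). Other RAS family GTPases had 5 higher and 4 lower of 12 (RALA 0.80, RHEB -0.96).

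Under the HMGA1 shRNA, ERK output genes were called in both states, 7 of 15 higher and 2 lower in growing cells (beside 14.8% and 15.1% of all genes) and 6 higher and 2 lower in OIS (beside 18.8% and 17.1%). DUSP6 was higher in Grow-shA1 (0.73, 114 to 189 CPM), where HRAS was higher too, as was SPRY2 (0.65). In OIS-shA1, where HRAS was lower, DUSP6 and SPRY2 were called higher too (DUSP6 from 593 to 760 CPM, both named here after their values were seen). SPRED1 and ETV5 were also higher in OIS-shA1 (0.68 and 0.46) and DUSP4 and ETV4 lower (-0.61 and -0.47). The interaction of the shRNA with OIS was called above 0 for 3 of the 15 genes and below 0 for 6 (beside 12.2% and 11.4% of all genes). DUSP6 and SPRY2 were among the 6 below 0, where HRAS also lay. The exchange factor RASGRF2 was higher with the shRNA in both states (0.64 and 0.63). Over all lists 14 genes were higher and 16 lower of 73 in growing cells (41.1% called, beside 29.9% of all genes), and 19 higher and 10 lower of 72 in OIS (40.3%, beside 35.9%). In H1299-shA1, 12 of 72 were higher and 10 lower (30.6%, beside 15.6%), among them DUSP5 (0.36) and SPRY1 (-0.38).

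In OIS-shCEBPB, where HRAS was 0.673-fold of OIS-v-v, 3 ERK output genes were higher and 3 lower of 15 (beside 9.09% and 8% of all genes), with DUSP6 at -0.67 (545 to 342 CPM), PHLDA1 at -0.35 and the receptor gene EPHA4 at 0.74. RASGRF2 was lower (-0.53) and the scaffold KSR1 higher (0.80). In OIS-shCEBPB-shp53, where HRAS was 0.533-fold, 8 were higher and 3 lower (beside 17.1% and 16.5%), with DUSP6 at -0.68 and SPRY2 at -0.44, but SPRY1 at 0.75 and ETV4 at 0.64. No ERK output gene was called in OIS-shp53 by edgeR, where 3 of 71 genes over all lists were higher and 2 lower (7.04%, beside 4.44% of all genes). Over all lists 11 genes were higher and 10 lower of 71 in OIS-shCEBPB (29.6%, beside 17.1% of all genes), and 18 higher and 16 lower in the double knock-down (47.9%, beside 33.6%).

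The genes whose log2 CPM followed that of HRAS most closely over the 32 libraries of the HMGA1 experiment were ARSI, BCL9L and SYDE1 (Pearson r = 0.909, 0.897 and 0.896, of 12564 genes compared). In the 25 libraries of the other IMR90 experiment their r with HRAS was 0.469, 0.451 and 0.492. On deviations from the group means, which leave out differences between groups, the closest were ADRM1, SLC16A3 and PLEKHM2 (r = 0.923, 0.915 and 0.915), with r = 0.808, 0.599 and 0.432 in the other experiment. ESR1 was at place 827 (r = 0.720) and, on deviations, had r = 0.143. Without OIS replicate 4 it was at place 117 (r = 0.811), with r = 0.356 on deviations. Libraries share depth and preparation, so these values describe likeness only.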

How the data were processed

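PolyA RNA was sequenced from IMR90 and H1299 cells with stranded mRNA kits on HiSeq-4000 or NovaSeq-6000 instruments, which are not given per library. The authors aligned reads with STAR and deposited raw counts per gene from featureCounts (subread) on hg19 with GENCODE19, without regard to strand. The header of the HMGA1 table in IMR90 names fragment counting and that of the H1299 table read counting. Groups follow the labels, which state 6 biological replicates although groups hold 5 to 8.

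Counts were filtered (filterByExpr, minimum count 10), TMM-normalised and tested per contrast with edgeR 4.0.16 by quasi-likelihood F tests, with Benjamini-Hochberg adjustment over all genes tested and a threshold of 0.05. CPM used TMM-scaled library sizes, and log2 CPM for likeness a prior count of 2. RPKM used the exon lengths deposited with the HMGA1 experiments, also for the CEBPB and p53 experiment, whose counts came without lengths. edgeR was also the authors' tool. The fits were checked on simulated counts with few changed genes, in random directions. That check does not cover scaling in contrasts where most genes are called. Alternatives used DESeq2 1.42.0, other size factors and filters, all groups in 1 fit, a replicate block and the omission of each library. For the CEBPB and p53 table, replicates 1 to 3, replicates 4 and 5, and the set as a term were added after seeing the data. Same-numbered libraries of that table deviated together (r = 0.133 to 0.542 in every pair), so blocked values stand beside some of the results whose call they change. For the double knock-down against OIS-shCEBPB, where the block called 4 genes, a blocked value is given for NRAS only. Of each pathway list and contrast, at most the 2 largest rises and falls among called genes with a mean of at least 1 CPM could be named. The 7 genes, lists and tests were chosen with earlier results of these data known. Depth and counting limits cover counting error only. Coding sequences were compared in GENCODE v44lift37 on GRCh37 (hg19). The target of the remaining shRNA is not reported here.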

Additional observations from a re-analysis of the deposited data

Results flagged for a closer look

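Of 77 groups of values, 1 per gene and group, 4 held a library far from the others by Dixon's criterion, of which chance flags about 1 in 20. ARAF in OIS replicate 4, the library with 1903607 counts, was at 28.8 CPM, beside 47.8 to 55.7 CPM in the other OIS libraries. HRAS in Grow-v-v replicate 5 was at 1855 CPM, beside 1401 to 1500 CPM. ARAF in OIS-shCEBPB replicate 5 was at 52.6 CPM, beside 56.3 to 57.5 CPM. NRAS in H1299-shA1 replicate 7 was at 379 CPM, beside 302 to 329 CPM.

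The effect of the HMGA1 shRNA differed between OIS and growing cells for HRAS and NRAS, of the 7 genes, and for ESR1. The interaction was -0.41 on the log2 scale for HRAS (adjusted p = 0.00055), 0.30 for NRAS (adjusted p = 0.0056) and -0.41 for ESR1 (adjusted p = 0.0029), by edgeR's quasi-likelihood test.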

How the results depend on the processing

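Limits: HRAS counts mix the transgene with the cell's own gene, CPM are shares of each library and not amounts per cell, and OIS replicate 4 is shallow. Changes in total RNA per cell cannot be told apart from scaling. In the CEBPB and p53 experiment NRAS in OIS-v-v was at 88.2 to 98.4 CPM in replicates 1 to 3 and at 130 to 158 CPM in replicates 4 and 5.

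The values below are log2 fold changes or counts of the 7 genes called. The cause of each change was not tested. With library sizes alone, 4 genes were called in OIS-shA1 against OIS (1 by TMM) and 1 in the interaction of shA1 with OIS (2 by TMM). The sign changed for RRAS in OIS-shA1 against OIS (-0.059), HRAS (0.094), NRAS (0.13), BRAF (0.15) and ESR1 (0.075) in OIS against Grow, BRAF in OIS-shA1 against Grow-shA1 (0.030), ARAF in OIS-shCEBPB (0.022), OIS-shCEBPB-shp53 against OIS-v-v (0.0041) and against OIS-shp53 (0.089), and RRAS (-0.11) and MRAS (-0.083) in the interaction of shA1 with OIS. ARAF in the double knock-down against OIS-shp53, at -0.00074, also changed sign with upper-quartile factors (0.0080), no filter (0.0017), all groups in 1 fit (0.0076, where 3 genes were called in place of 5), the replicate block (0.00052) and replicates 1 to 3 (0.0068). Without a filter HRAS in OIS-v-v against Grow-v-v was no longer called (-0.30, adjusted p = 0.051).

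With the replicate block the genes called became 5 in OIS-shCEBPB, 1 in OIS-shp53 (HRAS -0.22) and 4 in OIS-shCEBPB-shp53 against OIS-shCEBPB. DESeq2 also called 1 in OIS-shp53 (HRAS -0.23). In the HMGA1 experiments same-numbered libraries share only a number (lowest pair correlations -0.13 in IMR90 and -0.145 in H1299), and the block called RRAS, 1 gene, in H1299-shA1 and put BRAF at 0.00077 in the interaction of shA1 with OIS. For all genes, calls went with the block from 2290 to 4270 in OIS-shCEBPB, from 594 to 3037 in OIS-shp53 (1092 by DESeq2), from 1992 to 4425 in the double knock-down against OIS-shCEBPB (1012 with all groups in 1 fit) and from 6 to 104 in the interaction of shCEBPB with shp53 (30 by DESeq2, 3 without a filter).

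Within replicates 1 to 3, 5 genes were called in OIS-shCEBPB, 4 in OIS-shp53 (HRAS -0.30) and 3 in the double knock-down against OIS-shCEBPB. There BRAF was 0.0044 in the double knock-down against OIS-v-v, RRAS2 -0.011 against OIS-shCEBPB and RRAS 0.0048 in the interaction of shCEBPB with shp53. Within replicates 4 and 5, 2 genes were called in the double knock-down against OIS-shCEBPB, and signs changed for NRAS in OIS-v-v (0.45), RRAS2 (0.080) and MRAS (0.0033) in OIS-shp53, BRAF in the double knock-down against OIS-shCEBPB (-0.022) and RRAS2 in the interaction of shCEBPB with shp53 (-0.036). With the set as a term, counts were 5 in OIS-shCEBPB, 2 in OIS-shp53 (HRAS -0.22) and 4 in the double knock-down against OIS-shCEBPB. All-gene calls in replicates 1 to 3 and with the set as a term were 4408 and 4565 in OIS-shCEBPB, 4578 and 3521 in OIS-shp53, 4397 and 4520 in the double knock-down against OIS-shCEBPB, and 463 and 123 in the interaction of shCEBPB with shp53, which had 294 in replicates 4 and 5. They were 7240 in replicates 1 to 3 for the double knock-down against OIS-v-v (4502 in all) and 5793 with the set for it against OIS-shp53 (3711 in all).

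Leaving out 1 library gave 4 to 6 genes called in Grow-shA1 (4 with all libraries), 3 to 4 each in OIS-shCEBPB and the double knock-down against OIS-v-v, 1 to 2 genes called in OIS-shA1 against OIS, 3 to 5 in OIS-v-v, 0 to 1 in OIS-shp53, 1 to 2 and 3 to 6 in the double knock-down against OIS-shCEBPB and OIS-shp53, and 0 to 1 in H1299-shA1. HRAS ranged from -0.33 to -0.23 in OIS-v-v and from -0.28 to -0.21 in OIS-shp53. Signs of uncalled values crossed 0 for RRAS in Grow-shA1 (-0.018 to 0.046) and OIS-shA1 against OIS (-0.021 to 0.069), NRAS in OIS-v-v (-0.18 to 0.055) and OIS-shp53 (-0.019 to 0.22), RRAS2 (-0.031 to 0.069) and BRAF (-0.028 to 0.045) in the double knock-down against OIS-shCEBPB, ARAF in it against OIS-shp53 (-0.021 to 0.028), and MRAS in H1299-shA1 (-0.00085 to 0.035). In the interaction of shA1 with OIS they did so for RRAS (-0.037 to 0.052) and BRAF (-0.037 to 0.024), and in that of shCEBPB with shp53 for NRAS (-0.11 to 0.14), RRAS (-0.080 to 0.0060) and MRAS (-0.097 to 0.035).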
